A study of Mus musculus with 12 samples.

Results

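B cells make the antibodies of the immune system, and each carries 1 antibody on its surface as an antigen receptor. The receptor signals through a pair of attached chains and is tuned by co-receptors and inhibitors. Transcription factors hold a cell in the B lineage until it becomes a plasma cell. In the gut, B cells gather in lymphoid follicles and patches in the wall, while the plasma cells that secrete antibody lie scattered in the lamina propria. In blood, B cells circulate with T cells among a large excess of red cells. The 9 genes followed here, Ms4a1, Cd79a, Cd79b, Pax5, Cr2, Fcer2a, Blk, Cd22 and Fcrla, were chosen by name as B cell genes and were matched by gene symbol. All 9 were found among the 53801 genes of the count table and in the normalized tables of both tissues, and all 9 passed the filter on low counts in each test.

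The data are total RNA-seq of colon and whole blood from male C57BL/6 mice, wild type and 8 weeks old when obtained. Mice 1, 2 and 4 are labelled UC (ulcerative colitis), the group described as given 1.5% dextran sulfate sodium (DSS) in the drinking water for 7 days, and mice 7, 8 and 9 are labelled control, the group described as given the same water without it. DSS is a sulfated sugar polymer that damages the gut lining and gives an acute chemical colitis, which limits the mice as a model of the human disease. All mice were killed on day 8. Colon and blood came from the same 6 mice, so there are 12 libraries in 4 groups of 3. Colon RNA was depleted of ribosomal RNA and blood RNA of ribosomal and globin RNA with a different kit, so tissue and kit cannot be told apart.

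Colon libraries held 69181049 to 103662306 counts and blood libraries 80867247 to 142536804. A single one of the 9 genes had at most 903 counts in any colon library (at least 0), and 371 to 13385 counts per library of blood. A second label field names the opposite tissue for every sample. The red cell gene Alas2 had 4678666 to 7108744 counts in the libraries taken here as blood and 497 to 4595 in those taken as colon, and the epithelial keratin Krt8 had 0 to 88 and 330742 to 496956. The neutrophil markers do not follow the disease labels. In both tissues their sum was highest in mice 1, 7 and 9, of which only mouse 1 is labelled UC, and groups are therefore called "labelled UC" and "labelled control" throughout. Each log2FC between them is a difference between labels, and whether the labels name the mice that drank DSS was not tested.

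The sequence at the annotated start is shown for a few of these genes. The RefSeq promoter table for GRCm38.p6 held 8 promoters for 6 of the 9 genes (Cd79a, Pax5, Cr2, Fcer2a, Cd22 and Fcrla), each with 250 bases before and 50 bases after the annotated start. Ms4a1, Cd79b and Blk had no entry. Cd79a is shown because it differed least between the tissues, Cr2 because it had the widest span over colon libraries among genes counted in all 6, and Cd22 because it held the single motif match. Letters are 5′ to 3′ on the gene's own strand, and capitals mark that match. Cd79a lies at chr7:24897247-24897546 on the plus strand, Cr2 at chr1:195176670-195176969 on the minus strand and Cd22 at chr7:30878979-30879278 on the minus strand.
Cd79a: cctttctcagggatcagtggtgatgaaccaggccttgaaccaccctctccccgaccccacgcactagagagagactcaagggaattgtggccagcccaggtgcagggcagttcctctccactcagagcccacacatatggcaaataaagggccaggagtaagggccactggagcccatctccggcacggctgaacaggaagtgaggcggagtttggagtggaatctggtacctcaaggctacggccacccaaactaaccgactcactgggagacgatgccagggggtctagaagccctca
Cr2: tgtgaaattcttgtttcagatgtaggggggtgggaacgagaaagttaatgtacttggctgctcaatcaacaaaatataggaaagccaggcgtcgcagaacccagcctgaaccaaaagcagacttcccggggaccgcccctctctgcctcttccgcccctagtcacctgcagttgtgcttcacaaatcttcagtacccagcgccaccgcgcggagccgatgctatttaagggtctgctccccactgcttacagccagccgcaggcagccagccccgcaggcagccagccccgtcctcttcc
Cd22: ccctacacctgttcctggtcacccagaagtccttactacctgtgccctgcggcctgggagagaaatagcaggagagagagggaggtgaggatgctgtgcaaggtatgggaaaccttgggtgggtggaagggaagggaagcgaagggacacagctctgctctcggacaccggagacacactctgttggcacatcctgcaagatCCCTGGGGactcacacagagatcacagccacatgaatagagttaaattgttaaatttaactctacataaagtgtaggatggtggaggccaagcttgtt

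2 motifs tied to B cell transcription factors were searched on both strands. The octamer ATGCAAAT, bound by the POU factors Oct-1 and Oct-2 with the B cell coactivator Pou2af1, was found in none of the 8 promoters, and in 1.74% of 32851 promoters in the table. The palindromic core CCCNNGGG of early B cell factor sites was found in 1 of the 8, that of Cd22, where it begins 48 bases before the start (position -48) and reads CCCTGGGG. It was found in 13.7% of all promoters, so a single match among 8 is near the background. The motifs do not overlap in these promoters.

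In the colon, the 9 genes shared a pattern over mice that did not follow the labels. Each was lowest in mice 1 and 8, 1 labelled UC and the other labelled control, and 7 of the 9 were highest in mice 7 and 9. Mice 1 and 8 were the lowest pair for 3.87% of the 22123 colon genes with a mean of at least 10 normalized counts, and mice 7 and 9 the highest pair for 12.5%. Summed over the 9 genes, the normalized count (the deposited count divided by 1 scaling factor per library) was 252, 1708 and 2998 in mice 1, 2 and 4, and 4026, 431 and 4228 in mice 7, 8 and 9. In whole tissue, fewer B cells and less of each RNA per B cell cannot be told apart.

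**Figure D1:**
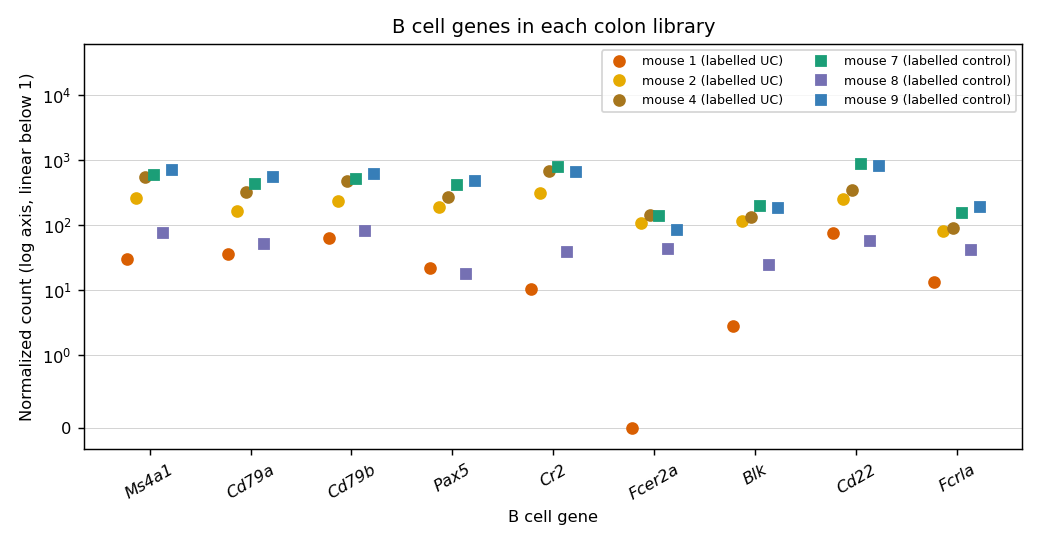
Normalized count of each of the 9 B cell genes (x axis) in the 6 colon libraries, on a log axis that is linear below 1. Circles are mice labelled UC and squares mice labelled control. Mice 1 and 8 lie at the bottom for every gene, and mouse 1 is at 0 for Fcer2a.

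Among the genes of the antigen receptor, Cd79a and Cd79b encode the paired signalling chains (Ig-alpha and Ig-beta) without which the receptor neither reaches the surface nor signals. Colon Cd79a was 36.0, 165 and 323 normalized counts in mice 1, 2 and 4 and 420, 51.7 and 538 in mice 7, 8 and 9. Colon Cd79b was 62.5, 234 and 473 in mice 1, 2 and 4 and 508, 81.9 and 598 in mice 7, 8 and 9. For both genes each labelled group held 1 low mouse, and the groups overlapped. The labelled groups had 175 ± 143 and 337 ± 254 for Cd79a (SD, n = 3 each), a log2FC (log2 of UC over control) of -0.95 with an SE of 1.00, and 257 ± 206 and 396 ± 276 for Cd79b, a log2FC of -0.63 with an SE of 0.90. Blk encodes a Src family kinase that phosphorylates these chains. It was 2.84, 114 and 134 in mice 1, 2 and 4 and 193, 23.9 and 185 in mice 7, 8 and 9, so mouse 1 held only 3 counts of it (log2FC -0.69, SE 1.23).

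Ms4a1 encodes CD20, a B cell membrane protein that therapeutic antibodies target. It was 30.3, 257 and 545 normalized counts in the colon of mice 1, 2 and 4 and 584, 75.6 and 696 in mice 7, 8 and 9 (log2FC -0.71, SE 1.09). Pax5, the transcription factor that holds cells in the B lineage, was 21.8, 188 and 265 against 416, 17.6 and 466 (log2FC -0.93, SE 1.21). Pax5 and Cd22 were the 2 genes lowest in mouse 8 rather than mouse 1. Parts of Pax5 exons overlap exons of the opposite strand genes 5730488B01Rik (7.18% of its exon bases) and Gm12462 (1.41%), and 9.50% of the exon bases of Cd22 overlap Gm29439. No strand setting is stated for the quantification, so it is taken as unstranded and reads of these stretches cannot be assigned to 1 strand.

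Of the co-receptors and surface receptors, Cr2 encodes the complement receptors CD21 and CD35, which lower the threshold for B cell activation and are also carried by follicular dendritic cells. Colon Cr2 had the widest span of the genes counted in every mouse, with 10.4, 307 and 683 in mice 1, 2 and 4 and 766, 39.1 and 660 in mice 7, 8 and 9, 73.6-fold from mouse 1 to mouse 7. Fcer2a encodes CD23, the low-affinity IgE receptor of mature follicular B cells, and was 0, 107 and 141 against 135, 42.9 and 84.6. The count of 0 in mouse 1 allows up to 3 counts, or 2.84 normalized counts, for counting error only. Among the 5 colon libraries other than mouse 1, Fcer2a spanned 3.29-fold and Cr2 19.6-fold. The log2FC was -0.56 for Cr2 (SE 1.40) and -0.09 for Fcer2a (SE 1.36), the smallest of the 9 in edgeR, but limma-voom gave -1.92 for Fcer2a (SE 1.87), the largest of the 9 in that fit.

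The inhibitory receptor gene Cd22, whose product binds sialic acid and dampens antigen receptor signals, was 74.8, 254 and 346 normalized counts in the colon of mice 1, 2 and 4 and 849, 56.7 and 813 in mice 7, 8 and 9. Its log2FC of -1.35 (SE 0.98) was the largest of the 9 in edgeR (-0.92 in limma-voom, smaller than that of 5 others), and the labelled groups overlapped through mouse 8. Fcrla, an Fc receptor-like protein kept inside B cells, was 13.3, 80.1 and 89.1 against 154, 41.6 and 186 (log2FC -1.07, SE 0.82). Mice 7 and 9 were clearly above the rest for these genes, as they were for Pax5, whereas for Cr2 and Ms4a1 mouse 4 lay close to them.

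Tested across 22238 colon genes with edgeR's quasi-likelihood test, none of the 9 was called at an adjusted p of at most 0.05 with an absolute log2FC over 1, where 1 gene (0.0045%) was called in all. At these limits the paper reports far more colon genes, and the source of this gap was not tested. None of the 9 had an unadjusted p under 0.05 either, as 313 genes (1.41%) did, and the adjusted p of each was 1.00. All 9 log2FC values were below 0, from -1.35 to -0.09, with a median of -0.71, beside a median of -0.01 and 51.0% of values below 0 over all genes. Markers of some other cell types leaned the same way with none called. Below 0 were 9 of 10 T cell markers (median -0.78), 9 of 9 tested neutrophil markers (-1.88) and 8 of 8 monocyte and macrophage markers (-0.85). So were 3 of 3 follicle stroma genes (-2.003) and 5 of 5 epithelial markers (-0.17). Above 0 were 4 of 4 smooth muscle markers (0.40), 4 of 7 plasma cell markers (0.03) and 2 of 3 tested platelet markers (0.02). The part of these cell types in the values of the 9 was not tested. The 9 values are not independent of each other, since the genes share mice 1 and 8 as their lowest libraries. In no gene did the labelled groups separate without overlap, as they did in 5.41% of all genes. With each mouse left out in turn, the median of the 9 ran from -0.18 without mouse 1 to -1.52 without mouse 4, and Cr2 and Fcer2a were above 0 without mouse 1 (0.01 and 0.49). Without mice 1 and 8, chosen after their values were seen, the median was -0.69 in a fit that called 263 genes. No p is given for the 9 from that fit, since its libraries were picked on the values of these genes.

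**Figure D2:**
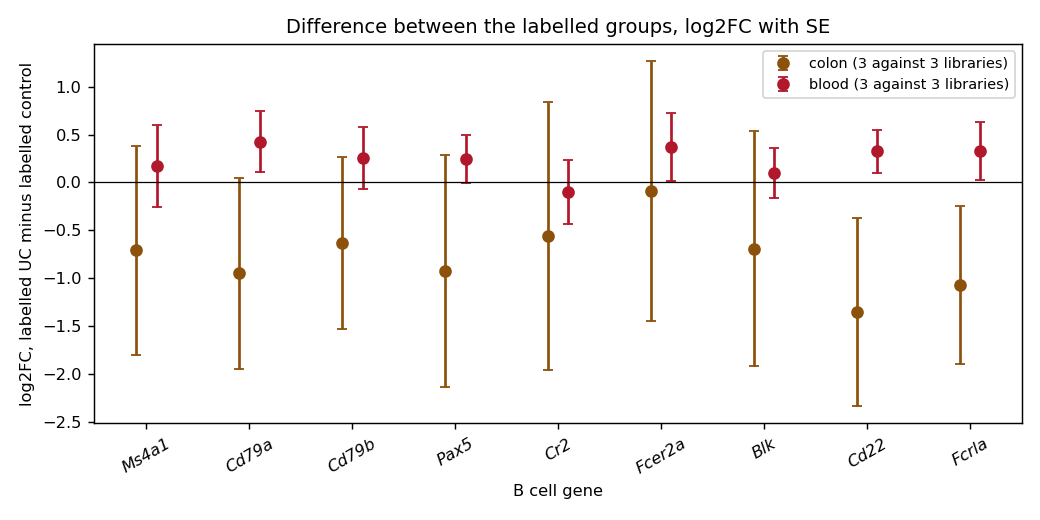
log2FC of labelled UC over labelled control (y axis) for each B cell gene (x axis) in colon and blood, from edgeR with 3 against 3 libraries. Bars are the SE. Colon values lie between -1.35 and -0.09 with wide bars, and blood values between -0.10 and 0.42.

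Levels of different genes were set side by side per kilobase of exon, with all annotated exons of a gene merged. That length is not the length of the RNA expressed, so the order of genes depends on the annotation. Cd79b had the highest mean colon level at 228 ± 161 normalized counts per kilobase (SD over 6 libraries), followed by Cd79a at 175 ± 140. Then came Cd22 at 79.1 ± 69.8, Ms4a1 at 59.0 ± 45.6, Fcrla at 53.9 ± 37.7 and Cr2 at 50.7 ± 41.7. Last were Blk at 40.4 ± 29.7, Fcer2a at 27.5 ± 17.8 and Pax5 at 25.9 ± 21.5. Within a library, Cd79b was above Cd79a, and Cd79a above Cd22, in 6 of 6. From Cd22 down, each gene was above the next in 3 to 5 of the 6 libraries.

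The rest of the pathway was read from lists of other B cell genes. In the colon none of the 17 genes of the receptor complex and its signalling was called, 13 had a log2FC below 0, and the median was -0.53. The 4 most abundant were Cd81, Syk, Blnk and Bcl10, with log2FC values of 0.14, -0.53, -0.30 and 0.00, genes that cells other than B cells also use. All 9 further inhibitors of the receptor had values below 0 (median -1.02, 0 called). The most abundant were Pecam1 at -0.48 (SE 0.25) and Ptpn6 at -0.18 (SE 0.22). They were followed by the inhibitory Fc receptor gene Fcgr2b at -1.57 (SE 0.90) and the lipid phosphatase gene Inpp5d at -0.88 (SE 0.52). The lowest value was that of Cd5 (-1.88), which is also among the T cell markers. Of 13 transcription factors 11 had values below 0 (median -0.37, 0 called), and of 19 other surface receptors 17 did (median -1.19, 0 called). Among the abundant factors, Irf8 had a log2FC of -0.45 and Foxo1 of 0.00. Fcgr2b was 2268, 466 and 624 in mice 1, 2 and 4 and 4728, 580 and 4612 in mice 7, 8 and 9, so mouse 1 was not low for it.

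The genes of the unswitched heavy chains, Ighm (IgM) and Ighd (IgD), were both lowest in mice 1 and 8, as the 9 genes were. Ighd was 18.0, 291 and 459 normalized counts in the colon of mice 1, 2 and 4 and 658, 59.2 and 909 in mice 7, 8 and 9. Ighm was 431, 893 and 2555 against 1667, 562 and 4100, highest in mice 9 and 4. Neither was called (log2FC -1.09 and -0.71, SE 1.23 and 0.85). Of the 7 plasma cell markers 0 were called (median log2FC 0.03). Their sum of 34986 to 47675 was mostly Sdc1 and Xbp1 (28427 to 32421 together), which gut epithelium also expresses. The more specific markers were not level. Jchain, the joining chain of secreted IgA and IgM, was 2788, 8187 and 15557 in mice 1, 2 and 4 and 4941, 4402 and 6387 in mice 7, 8 and 9. Jchain, Mzb1 and Tnfrsf17 together, set apart after their values were seen, summed to 2806, 8367 and 15803 against 4990, 4475 and 6511. Most of this sum was Jchain. It was again lowest in mice 1 and 8, but highest in mouse 4 and not in mouse 7 or 9. The 2 remaining markers differed from each other. Irf4 was 228, 291 and 465 against 387, 268 and 388, also lowest in mice 1 and 8. Prdm1 was 997, 184 and 505 against 1182, 639 and 1402, lowest in mouse 2, with mouse 1 above mice 2, 4 and 8.

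Other cell types followed orders over the mice that matched that of the 9 genes in part. Monocyte and macrophage markers summed to 20420, 9581 and 11248 in the colon of mice 1, 2 and 4 and 29660, 9004 and 30854 in mice 7, 8 and 9. That sum and the T cell sum were, like the B cell sum, highest in mice 7 and 9 and low in mouse 8. The 10 T cell markers summed to 1356, 537 and 725 normalized counts in the colon of mice 1, 2 and 4 and 2126, 451 and 2122 in mice 7, 8 and 9, so mouse 1, lowest for the summed B cell genes, stood above mice 2, 4 and 8 for this sum. Single markers differed, since Cd8a was 206 in mouse 1 beside 13.1, 23.1 and 5.04 in mice 2, 4 and 8, whereas Cd28 was lowest in mouse 1 (45.5, beside 94.1, 117 and 63.0 in mice 2, 4 and 8). None of the 10 T cell markers was at 0 in mouse 1, and 1 was in mouse 2. The ratio of the 9 B cell genes to the T cell markers was 0.186 in mouse 1, 3.18 in mouse 2, 4.14 in mouse 4, 1.89 in mouse 7, 0.955 in mouse 8 and 1.99 in mouse 9. Of the 10 neutrophil markers, Ly6g alone held 7350 to 25479 normalized counts in each colon library, and it was lower in blood than in colon (log2FC -2.90), unlike S100a8 and S100a9. The other 9, a sum taken after the values were seen, came to 15967, 123 and 220 in mice 1, 2 and 4 and 7805, 309 and 43880 in mice 7, 8 and 9, so mice 1, 7 and 9 lay far above the rest. Up to 4 of the 10 were at 0 in a library. The smooth muscle markers, which are also in the gut wall, summed to between 110632 and 440408 and the epithelial markers to between 520108 and 809492, with no marker at 0. The follicle stroma genes Cxcl13, Madcam1 and Coch, of which Cxcl13 is the chemokine that draws B cells into follicles, summed to 1101, 435 and 493 against 1664, 182 and 8563. This sum was highest in mouse 9 and lowest in mouse 8, while mice 2 and 4, above mouse 1 for each of the 9 B cell genes, were below it here. The part of these cell types in the B cell values was not tested.

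**Figure D3:**
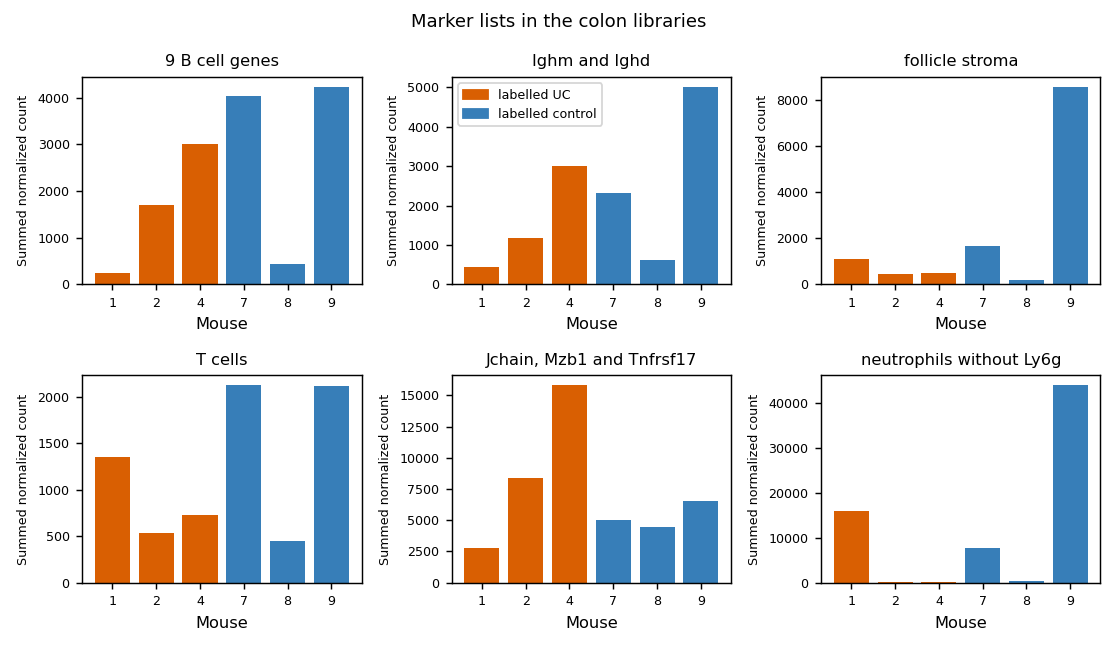
Summed normalized count (y axis, from 0) of 6 gene lists in the colon library of each mouse (x axis), with mice labelled UC in orange and mice labelled control in blue. The 9 B cell genes fall to 252 and 431 in mice 1 and 8, the T cell markers are at 1356 and 451 in the same mice, and the neutrophil markers without Ly6g stand out in mice 1, 7 and 9.

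The lists of ligands and germinal centre genes gave no calls in the colon (0 of 8 tested in each list). Cxcl13 had a log2FC of -2.48 (SE 1.27), with 936, 304 and 372 normalized counts in mice 1, 2 and 4 and 1239, 142 and 7649 in mice 7, 8 and 9. Tnfsf13b, which encodes the B cell survival factor BAFF, was 623, 209 and 271 against 1076, 389 and 707 (log2FC -0.99, SE 0.54), and Tnfsf13, which encodes the related factor APRIL, was 600, 579 and 543 against 311, 260 and 553 (log2FC 0.61, SE 0.33). Bcl6, the master regulator of the germinal centre, was 1024, 548 and 718 against 1591, 997 and 1662 (log2FC -0.90, SE 0.31, adjusted p 1.00 by edgeR). For Tnfsf13b and Bcl6 the libraries of mice 2 and 4 were among the lowest, unlike for the 9 B cell genes.

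The colon genes most like the 9 were ranked by Pearson's r between a gene's log2 CPM and the mean centred log2 CPM of the 9, over 6 libraries and 21848 genes, as a description. Each of the 9 had an r of 0.886 (Fcer2a) to 0.996 (Ms4a1) with that mean, which includes the gene itself. Among the 10 highest were Fcmr (r = 0.999), the receptor for the Fc part of IgM, F730311O21Rik (0.998), Ighd (0.997), Mfge8 (0.989), the T cell marker Cd28 (0.985), Bank1 (0.983), Tubg2 (0.979), H2-Eb2 (0.979) and Igkv12-46 (0.976). Fcmr was 7.58, 120 and 191 in mice 1, 2 and 4 and 247, 22.7 and 238 in mice 7, 8 and 9, lowest in mice 1 and 8 as the 9 genes were. Mfge8, whose product tethers dying cells to phagocytes, varied far less, from 1341 in mouse 1 to 3785 in mouse 9. Of 86 ranked genes from the B cell lists, 11 were among the 50 most like, and 12.8% had an r of at least 0.9, as did 0.453% of all genes. By rank correlation 8 of the list genes were among the 50, and with each mouse left out 4 to 7 were. The libraries share depth and tissue makeup over all genes, so these r values say nothing of shared control.

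In the blood, the 9 genes were more even over mice and did not move as a block. Over the 6 libraries the coefficient of variation was 17.6% (Cd22) to 36.9% (Ms4a1), against 64.7% (Fcer2a) to 88.2% (Cd22) in colon. The summed normalized count was 19258, 30577 and 34120 in mice 1, 2 and 4 and 27830, 23098 and 21263 in mice 7, 8 and 9. The ratio of this sum to the T cell markers lay between 1.73 and 2.30 in all 6, although the neutrophil markers summed to between 39361 in mouse 8 and 456391 in mouse 1. Mouse 8, low for every one of the 9 genes in the colon, was lowest in the blood for only 3 (Cd79a, Pax5 and Cd22).

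**Figure D4:**
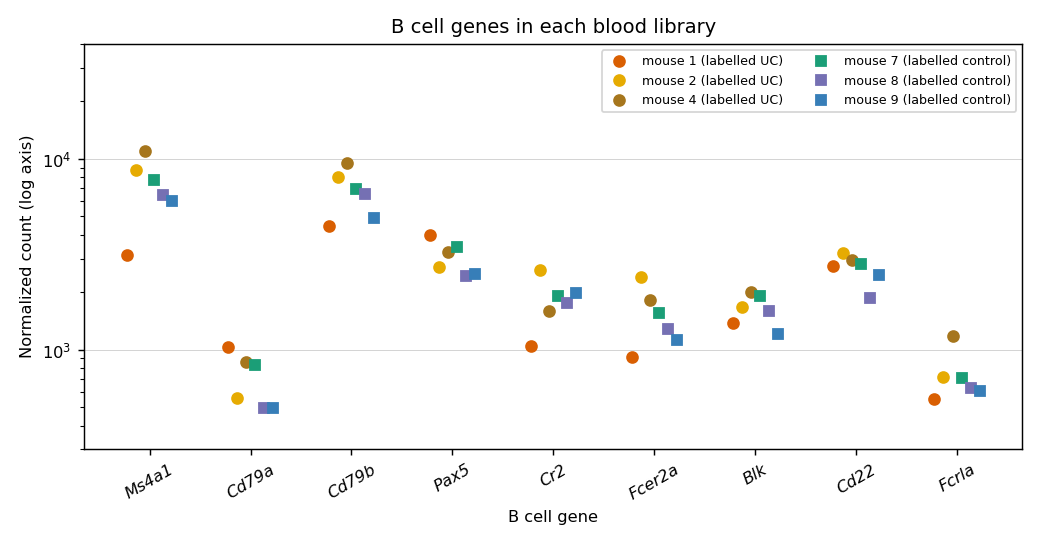
Normalized count (y axis, log scale) of each B cell gene (x axis) in the 6 blood libraries. Circles are mice labelled UC and squares mice labelled control. Mouse 1 is lowest for Ms4a1, Cd79b, Cr2, Fcer2a and Fcrla and highest for Cd79a and Pax5, in a library that was lowest for 28.6% and highest for 30.5% of all blood genes.

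The blood library of mouse 1 stood apart over all genes, lowest for 28.6% and highest for 30.5% of 16370 genes, the largest shares of any mouse, and it was lowest for 5 of the 9 and highest for 2. It was lowest for Ms4a1, with 3146 normalized counts beside 8701 and 10952 in mice 2 and 4 and 7758, 6477 and 6011 in mice 7, 8 and 9. It was also lowest for Fcer2a (911 beside 2392, 1812, 1557, 1280 and 1126 in mice 2, 4, 7, 8 and 9) and for Cr2 (1044 beside 2619, 1599, 1914, 1757 and 1975). Yet it was highest for Cd79a, with 1033 beside 558 and 857 in mice 2 and 4 and 832, 492 and 493 in mice 7, 8 and 9, and for Pax5, with 3994 beside 2702, 3257, 3446, 2437 and 2488. The count of Ms4a1 over that of Cd79a, a ratio chosen after its values were seen and given without a test, was 3.05 in the blood of mouse 1 and between 9.32 and 15.6 in the other mice. Over the 6 libraries Pax5 had an r of 0.12 with the mean pattern of the 9 and Cd79a of 0.20, whereas Ms4a1, Cd79b, Fcer2a, Blk and Fcrla had 0.86 to 0.94.

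Among the other blood values, Cd79b was 4454, 7997 and 9517 in mice 1, 2 and 4 and 6914, 6568 and 4904 in mice 7, 8 and 9. Blk was 1375, 1680 and 2002 against 1906, 1599 and 1203, and Cd22 was 2751, 3207 and 2946 against 2797, 1856 and 2454. Fcrla was 550, 721 and 1179 against 706, 632 and 608. Mouse 4 stood highest for Ms4a1, Cd79b, Blk and Fcrla, and mouse 2 for Cr2, Fcer2a and Cd22.

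Across 16759 blood genes, edgeR called none of the 9, and 0 genes (0%) in all by adjusted p of at most 0.05 and absolute log2FC over 1. DESeq2 called 6 genes, none of them among the 9. For blood too the paper reports far more at these limits, and the source of this gap was not tested either. In edgeR an unadjusted p under 0.05 was found for 241 genes (1.44%), again none of the 9. The log2FC values ran from -0.10 for Cr2 (SE 0.33) to 0.42 for Cd79a (SE 0.32), with 8 of 9 above 0 and a median of 0.25, beside 0.04 over all genes. The group means were 816 ± 240 and 606 ± 196 for Cd79a, 2968 ± 229 and 2369 ± 476 for Cd22 and 7600 ± 4017 and 6749 ± 905 for Ms4a1 (labelled UC and control, SD, n = 3 each). No gene separated the labelled groups without overlap, as 6.5% of all genes did. Scaling by library size alone moved the median of all genes to -0.27 and turned Ms4a1, Pax5, Blk and Cd22 below 0, and without mouse 4 the median of the 9 was 0.02.

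No gene of the other B cell lists was called in the blood either. The receptor signalling list had a median log2FC of 0.06 (17 genes), the inhibitors 0.19 (9), the transcription factors 0.08 (13), the surface receptors 0.05 (19) and T cell markers 0.16 (10). Ighm was 13197, 19183 and 18230 in mice 1, 2 and 4 and 16067, 12642 and 11101 in mice 7, 8 and 9, and Ighd was 3172, 2782 and 3184 against 3327, 2566 and 3080. Bank1, a B cell scaffold protein, was 2917 in mouse 1 and 6901 to 8515 in the other mice, the same side as Ms4a1. Syk and Lyn, kinases that myeloid cells also use, were highest in mouse 1, at 21696 and 14474.

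The 10 blood genes most like the 9, among 16220, were Gm37534 (r = 0.994), Atad3aos (0.993), Cd72 (0.992), Col3a1 (0.988), Adat3 (0.984), Mrps2 (0.982), Ndufb5 (0.982), Akr1b3 (0.981), Pou2af1 (0.981) and Cd5 (0.978). Cd72 is an inhibitory receptor of B cells and Pou2af1 the coactivator named above, while most of the others are not known as B cell genes. Of 83 ranked B cell list genes, 6 were among the 50 most like, and 9.64% had an r of at least 0.9, as did 0.986% of all genes. By rank correlation none of the B cell list genes was among the 50, and without mouse 1 only 1 was.

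The difference between the tissues in the labelled UC effect was tested as an interaction (blood log2FC minus colon log2FC) over 23258 genes. None of the 9 was called at an adjusted p of at most 0.05, as 1 gene (0.0043%) was. All 9 values were above 0, from 0.47 for Fcer2a (SE 1.35) to 1.69 for Cd22 (SE 1.06). Their median was 0.90 beside 0.06 over all genes, of which 45.6% were below 0. Also above 0, with none called, were 10 of 10 T cell markers (median 0.92) and 10 of 10 neutrophil markers (3.07). So were 8 of 8 monocyte and macrophage markers (1.33), but only 4 of 7 plasma cell, 2 of 5 epithelial and 1 of 4 smooth muscle markers. Each tissue's own values stand above, and those of the colon carry most of the error. With each mouse left out in turn the median of the 9 ran from 0.40 without mouse 9 to 1.47 without mouse 4.

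Levels of the 9 genes were compared between blood and colon over all 12 libraries on 1 scale, CPM after TMM scaling, a comparison that does not use the disease labels. All 9 were called higher in blood, where 20.8% of the 23258 genes were called higher and 37.7% lower (7.55% and 76.9% when scaled by library size alone). In each of the 9 the lowest blood library lay above the highest colon library, as in 19.2% of all genes. The log2FC of blood over colon had a median of 5.52, beside -0.46 over all genes.

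**Figure D5:**
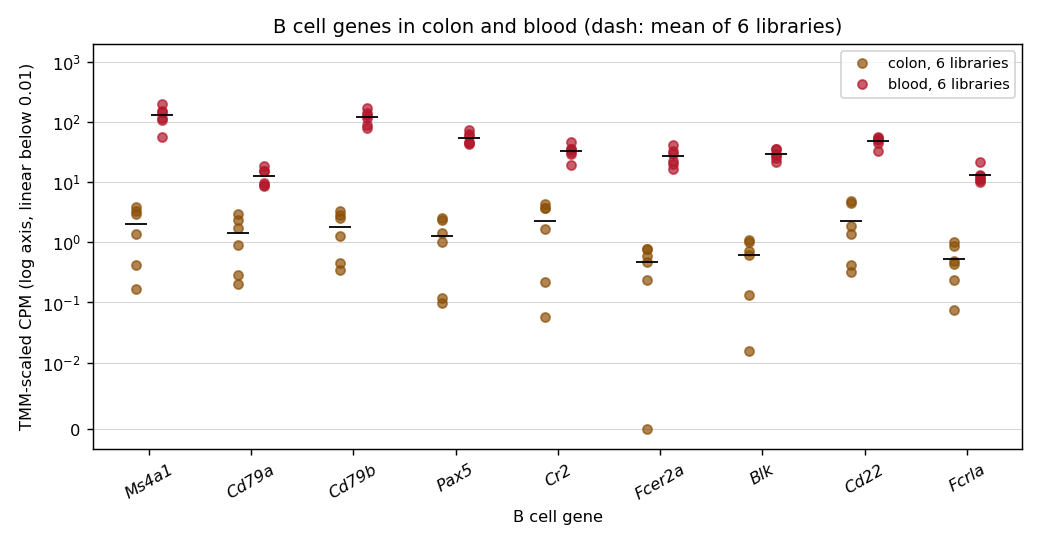
TMM-scaled CPM (y axis, log scale, linear below 0.01) of each B cell gene (x axis) in 6 colon and 6 blood libraries, with a dash at the mean. Blood lies above colon for each gene, with the narrowest gap for Cd79a (8.77 to 18.9 in blood, 0.200 to 2.98 in colon).

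Cd79b had the largest log2FC in this fit and went from 1.81 ± 1.29 CPM in the colon to 122 ± 34.0 in the blood (SD, n = 6 libraries each), a log2FC of 6.10 (SE 0.62, edgeR adjusted p 7.07e-06). Ms4a1 was next, from 2.03 ± 1.57 to 130 ± 47.8 CPM (log2FC 6.05, SE 0.77), and with mouse as a replicate block the order of these turned (6.52 for Ms4a1 and 6.44 for Cd79b). Fcer2a went from 0.472 ± 0.306 to 27.4 ± 9.35 (5.84, SE 0.82), Blk from 0.605 ± 0.450 to 29.5 ± 5.72 (5.65, SE 0.76) and Pax5 from 1.27 ± 1.07 to 55.5 ± 11.96 (5.52, SE 0.78). Smaller differences were found for Fcrla (4.75, SE 0.51), Cd22 (4.59, SE 0.61) and Cr2 (3.87, SE 0.85), from 2.28 ± 1.89 to 32.9 ± 8.96 CPM. Cd79a differed least, from 1.42 ± 1.14 to 12.9 ± 4.29 CPM (log2FC 3.25, SE 0.60, adjusted p 0.000572). Under scaling by library size alone the all-gene median shifted to -2.57 and that of the 9 to 3.35, and all 9 log2FC values stayed above 0, but Cd79a (1.09, adjusted p 0.0969) and Cr2 (1.76, adjusted p 0.0510) were no longer called.

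The receptor chains Cd79a and Cd79b, which pair as proteins, differed in their ratio between the tissues. Their exons are of similar total length (1457 bases for Cd79a and 1431 for Cd79b), so their counts can be set side by side. The count of Cd79b over that of Cd79a lay between 1.11 and 1.74 in the colon libraries and between 4.31 and 14.3 in the blood libraries, a ratio chosen after its values were seen and given without a test. Ms4a1 over Cd79a was 3.05 to 15.6 in blood and 0.842 to 1.69 in colon, and Pax5 over Cd79a was 3.80 to 5.05 in blood and 0.341 to 1.14 in colon. Neither ratio overlapped between the tissues, and nor did those of Fcer2a, Blk and Cd22 to Cd79a. Cr2 over Cd79a did overlap, with 1.01 to 4.69 in blood and 0.289 to 2.12 in colon. Fcrla over Cd79a overlapped too, with 0.532 to 1.38 in blood and 0.276 to 0.805 in colon. All these ratios are to Cd79a, which differed least between the tissues, so in part they restate the tissue comparison. They are given without a test, and the share of all genes that separate in this way was not computed. Per kilobase of exon, Cd79b had the highest mean blood level at 4700 ± 1324 normalized counts per kilobase and did not overlap the next, Ms4a1 at 1160 ± 428. Blk (603 ± 113), Cd22 (529 ± 92.9), Fcer2a (489 ± 173), Cd79a (488 ± 156), Fcrla (420 ± 130), Pax5 (345 ± 69.7) and Cr2 (224 ± 63.5) followed, and each neighbouring pair from Ms4a1 down overlapped over libraries. Cd79a was the second of the 9 in the colon order of means and the sixth in that of blood.

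Other lists were read against the 20.8% of all genes called higher in blood. Called higher in blood were 15 of 17 receptor signalling genes, 9 of 9 inhibitors, 11 of 13 transcription factors, 17 of 19 surface receptors (1 lower) and both unswitched heavy chain genes. Of 9 ligand genes, the lymphocyte cytokine genes Ltb (5.55), Lta (3.20) and Cd40lg (7.60) were called higher, and Cxcl13, Cxcl12, Ccl20 and Madcam1 were called lower. All 3 follicle stroma genes, which include Cxcl13 and Madcam1, were called lower. Of the B cell precursor genes 5 of 6 tested were called higher, and of the germinal centre genes 3 of 8 higher and 1 lower. Of 7 plasma cell markers 2 were called higher and 3 lower (median log2FC -0.88), and the 10 T cell markers were all called higher with a median of 5.54. Most markers of some other blood cells were called higher too, with 8 of 10 for neutrophils (1 lower, median 6.15). So were 3 of 3 for red cells and 4 of 4 for platelets. Of 8 monocyte and macrophage markers, 4 were called higher and 3 lower (median 0.66).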

How the data were processed

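RNA was measured by total RNA-seq. Per the study's methods, the authors trimmed the reads, discarded those of ribosomal RNA, aligned what was left with STAR (GRCm38), quantified genes with StringTie 1.3.4c on Ensembl annotation with default options, with no strand setting stated, and derived whole-number gene counts, which are not a tally of reads. The deposited normalized tables are a signal scale, 1 table per tissue, in which the authors divided each count by 1 factor per library (0.664 to 1.31). They were set side by side within 1 tissue only. The members and gene lists were chosen with earlier results of these data known. Groups follow the disease state and tissue labels and the numbers in the titles. Coordinates, exon lengths and overlaps came from GENCODE vM21 (GRCm38), and 138 of 141 list genes were found.

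The deposited counts entered edgeR 4.0.16 under R 4.3.3 (TMM, filterByExpr, glmQLFit, glmQLFTest, Benjamini-Hochberg over all genes). Calls needed an adjusted p no higher than 0.05 together with an absolute log2FC above 1 (adjusted p alone for the interaction). SE is log2FC over the root of F. The p-values within 1 tissue measure the spread between 3 mice per labelled group. Those of the interaction and of blood against colon rest on all 12 libraries, with a spread shared by both tissues. There the colon and blood libraries of a mouse were entered as if independent, except in the fit with a replicate block. Steps were tested on simulated data.

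The naming rule covered all 9 members and up to 4 genes of highest mean count per list. It also covered the 10 genes most like the members, among those with a mean of at least 10 normalized counts. Not every list gene it admits is given, and some list genes outside it are given too. A gene that the rule admits is not reported here. Alas2 and Krt8 served as tissue checks. Alternatives were RLE, library size only, no filter, a mean of at least 10 counts, DESeq2 1.42.0, limma-voom (limma 3.58.1), genes of the normalized tables, all 12 libraries, the mouse number as a replicate block, and each mouse left out. The study took both tissues from the same 6 mice, so the numbers pair libraries. Deviations of same-numbered colon and blood libraries from their group means had an r of 0.0073 to 0.233 across 15802 genes.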

Additional observations from a re-analysis of the deposited data

How the results depend on the processing

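The number of the 9 genes called was the same under all alternatives run for the colon, the blood and the interaction (0 in each), and was 9 for blood against colon except with library size scaling (7). With mouse as a replicate block, 9 were called for blood against colon and 0 for the interaction, so the pairing changed no call, though it put Ms4a1 (6.52) above Cd79b (6.44). Counts of all genes called moved more. DESeq2 called 6 in the colon, 6 in the blood and 19 in the interaction, where edgeR called 1, 0 and 1. Without mice 1 and 8, edgeR called 263, 12 and 52. These mice were picked after the colon values of the 9 were seen, so that fit is no test of the 9. Limma-voom called 0 in the colon, library size scaling 1 in the blood, and leaving out each mouse gave 0 in the colon, 0 to 3 in the blood and 1 to 2 in the interaction. Directions of single genes turned in few settings, none with a call. In the colon, leaving out each mouse gave log2FC values from -1.63 to 0.0108 for Cr2 and from -0.72 to 0.49 for Fcer2a, and Fcer2a was 0.166 without mice 1 and 8. Limma-voom gave -1.92 for Fcer2a, -1.35 for Blk and -1.07 for Cr2, beside -0.09, -0.69 and -0.56 in edgeR. In the blood, library size scaling gave -0.0626 for Ms4a1, -0.0928 for Pax5, -0.148 for Blk and -0.0278 for Cd22, and limma-voom gave -0.0071 for Ms4a1. Leaving out each mouse gave -0.51 to 0.17 for Cr2, -0.19 to 0.55 for Ms4a1, -0.0585 to 0.26 for Blk and -0.0350 to 0.56 for Fcrla, and Cr2 was 0.14 without mice 1 and 8. Where direction turned, the cause was not tested. The colon counts of 0 to 3 in mouse 1 limit what can be said of Fcer2a and Blk there.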
